A study of Mus musculus with 18 samples.

Results

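Tumor cells and cancer-associated fibroblasts that both lack Saa3 were compared, 3 libraries of each (KO_tumor and KO_CAF), chosen by their treatment label and making up 6 of the 18 libraries of the series. Saa3 encodes a serum amyloid A protein that is secreted in acute inflammation. RNA was taken from cells sorted out of fresh pancreatic tumors of mice, and gene levels are given as FPKM, fragments scaled to transcript length and to all mapped fragments of a library. All 6 libraries came from animals with an oncogene allele that Cre switches on, floxed p53 (Trp53lox/lox) and a yellow fluorescent reporter (Rosa26+/EYFP). Cre recombinase was made under Elas-tTA/tetO-Cre, in which the elastase promoter, active in acinar cells of the pancreas, drives a transactivator that switches Cre on. The oncogene and Trp53 alleles are therefore recombined in cells that descend from that lineage, while Saa3-/- is a germline genotype shared by tumor cells and fibroblasts. The other 12 libraries were tumor cells (WT_tumor, n = 4) and fibroblasts (WT_CAF, n = 5) of the same model with intact Saa3, and fibroblasts of normal pancreas (NPF, n = 3; without the oncogene allele, with Elas-tTA/tetO-Cre and Rosa26+/EYFP). The sources used here do not give the age of the animals, the sort markers, or whether tumor cells and fibroblasts came from the same animals. Replicate numbers follow the order of deposition and pair no samples.

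Pancreatic ductal adenocarcinoma is built from a minority of epithelial cancer cells set in a dense stroma that fibroblasts lay down. Epithelial cells hold together through E-cadherin junctions, tight junctions and desmosomes and rest on a laminin basement membrane, and their identity is kept by factors such as grainyhead, ELF and ESRP proteins. Fibroblasts make interstitial collagens and the enzymes that crosslink them, and they exchange growth factors, cytokines and chemokines with the cancer cells. Many of these signals run in 1 direction, with the ligand made in epithelium and its receptor in stroma, or the reverse.

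The tumor and fibroblast labels held up against epithelial and fibroblast markers. Epcam, the epithelial adhesion molecule, stood at 385, 586 and 482 FPKM in KO_tumor 1 to 3 and at 7.03, 0.0962 and 3.99 in KO_CAF 1 to 3. Krt8, a simple epithelial keratin, stood at 1192, 1987 and 996 against 53.1, 0.892 and 13.6. Pdgfra, a receptor of fibroblasts for platelet-derived growth factor, was at 0.598, 0.271 and 0.244 in tumor cells and at 105, 123 and 103 in fibroblasts. Mmp2, a gelatinase of stroma, was at 6.08, 2.52 and 0.263 and 662, 1316 and 952. All 4 markers parted the groups without overlap, and KO_CAF 2 held the least epithelial signal. The summed FPKM of 5 epithelial markers in KO_CAF 1, 2 and 3 was 3.53%, 0.0498% and 0.873% of the KO_tumor mean. That of 6 fibroblast markers in KO_tumor 1, 2 and 3 was 0.931%, 0.343% and 0.0802% of the KO_CAF mean. These 6 include Col1a1, listed at 0 in KO_CAF 2 beside 6029 and 3426 FPKM in KO_CAF 1 and 3, a possible failed estimate that lowers this mean. Such shares do not cover other cell types. The sum of 4 acinar markers was 1.81, 3978 and 12289 FPKM in KO_tumor 1 to 3 and 1.13 to 76.9 in KO_CAF, and its source was not tested.

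**Figure D1:**
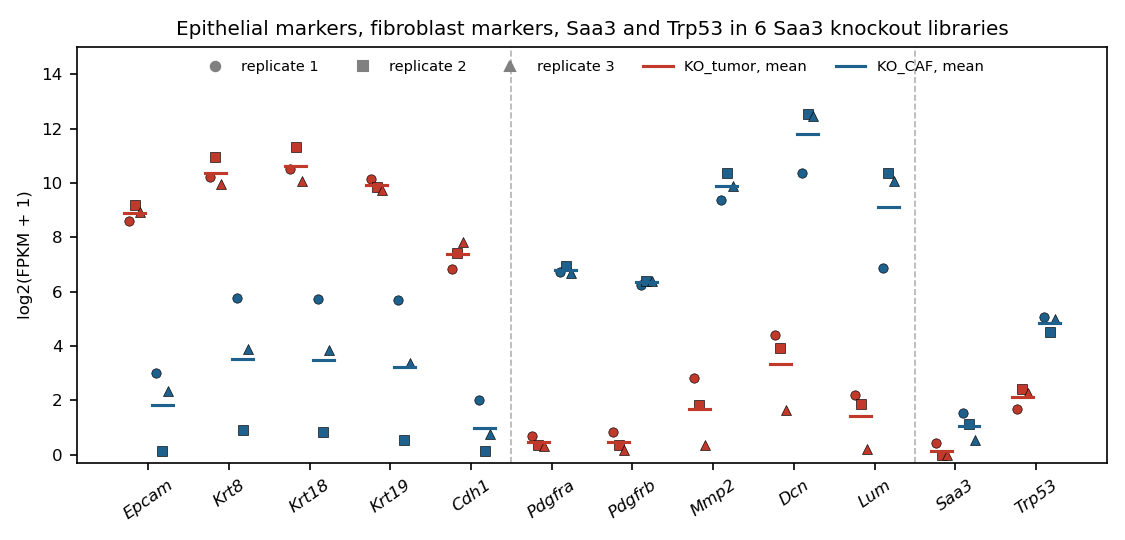
Levels of 5 epithelial markers (left), 5 fibroblast markers (middle) and Saa3 and Trp53 (right) in the 6 Saa3 knockout libraries, on a log2(FPKM + 1) axis; red marks tumor cells and blue fibroblasts, shapes give the replicate and horizontal lines the mean of 3. The markers do not overlap between the groups, and the blue circles of KO_CAF 1 lie highest among the fibroblasts for Krt8 (53.1 FPKM), Krt18 (51.6) and Krt19 (51.1).

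Libraries of a kind were alike: Spearman correlations over genes were 0.860 to 0.909 within KO_tumor, 0.854 to 0.891 within KO_CAF and 0.580 to 0.735 between them. FPKM summed to between 447245 and 584484, and 10682 to 11468 genes reached 1 FPKM. How many fragments these values rest on is unknown. KO_tumor 2 and KO_CAF 3 carry a 16-base index in their label and the other 4 libraries a 6-base index. This was read as a difference in library format, and it is balanced between the groups. Lane is not balanced: it was 7 for KO_tumor 2 and KO_CAF 3, 2 for KO_tumor 3, and 1 for KO_tumor 1, KO_CAF 1 and KO_CAF 2. Lane was no term of the fit. KO_tumor 1 and KO_CAF 1 stood apart from the rest. They held Xist, the RNA of the inactive X chromosome, at 30.3 and 26.0 FPKM, against 0 to 0.0342 in the other 4 libraries. They also held the neutrophil genes S100a8 (299 and 280 FPKM against 1.81 to 18.8) and S100a9 (214 and 239 against 0.703 to 12.4). Of 16 tested myeloid markers, 16 were highest in KO_tumor 1 among the tumor libraries and 15 were highest in KO_CAF 1 among the fibroblast libraries. Csf1r, the receptor of macrophages for colony-stimulating factor, was the 1 marker of these 16 that differed between the groups (-1.64 ± 0.51 on the log2 scale; limma adjusted p = 0.0287); its call was lost without KO_CAF 1, KO_CAF 2, KO_tumor 2 or KO_tumor 3. The part of such cells in the results was not tested. The total of calls without these 2 libraries is given below, with some list counts. Without both, the number called higher went from 30 to 24 for junction genes, 18 to 12 for gastric genes and 6 to 1 for proliferation genes. It rose from 3 to 20 for acinar enzymes and from 1 to 6 for glycolysis genes. The number called lower went from 12 to 7 for MHC class I genes and 8 to 5 for acute-phase genes. It stayed at 18 for fibroblast markers.

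Saa3 and Trp53, which are altered in the model, were read in every library. Saa3 was close to absent in all 6, at 0.346, 0 and 0 FPKM in tumor cells and 1.85, 1.16 and 0.434 in fibroblasts. Trp53, the floxed tumor suppressor, stood at 2.22, 4.38 and 3.79 FPKM in tumor cells and 32.4, 21.8 and 30.4 in fibroblasts, so that every tumor library lay below every fibroblast library. The difference was -2.72 ± 0.55 (log2 difference ± standard error; limma adjusted p = 0.00317).

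Tumor cells and fibroblasts differed in 3798 genes. Differences were tested with limma on log2(FPKM + 1) and called at a Benjamini-Hochberg adjusted p under 0.05. Of 13369 genes tested, 1741 (13.0%) were higher and 2057 (15.4%) were lower in KO_tumor than in KO_CAF, 28.4% in all. Those called exceeded 2 on the log2 scale in 582 and 942 cases and 4 in 126 and 283 cases. The 3 tumor libraries lay wholly above the 3 fibroblast libraries in 20.6% of all genes and wholly below in 21.3%, 42.0% together. Of the genes called, 89.9% of the higher and 92.1% of the lower showed no overlap. In the pair with a 16-base index, KO_tumor 2 against KO_CAF 3, 99.8% of each had the same sign. The number of calls depended on single libraries: 891 genes were higher and 1302 lower without KO_CAF 2, 943 and 1366 without KO_CAF 3, and 1125 and 1445 without KO_tumor 2. Without KO_CAF 1 and KO_tumor 1 together, 1044 were higher and 1360 lower. Wild-type libraries also entered through the shared estimate of spread. Without WT_CAF 1 and WT_tumor 4, whose markers are given below, 2085 were higher and 2359 lower in this knockout contrast. Within the 4 libraries with a 6-base index, 289 were higher and 513 lower of 10469 tested. There the filter of 1 FPKM in 3 libraries was set on those 4. It left out genes confined to a single cell type, such as Pdgfra, so these counts are not like for like. In such bulk libraries, fewer cells of a type and less RNA per cell cannot be told apart.

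**Figure D2:**
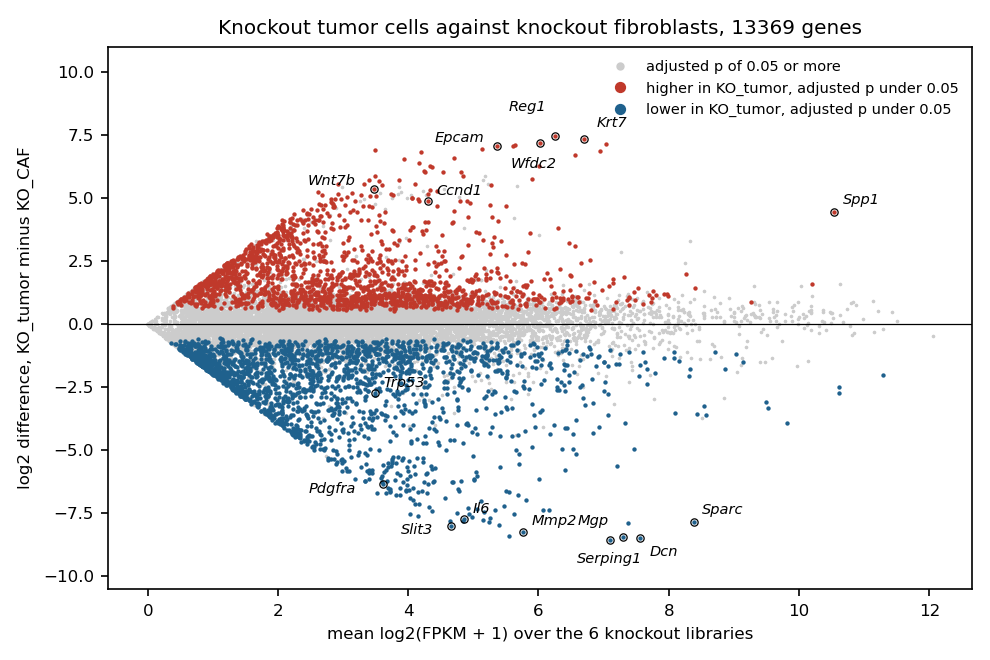
Difference between Saa3 knockout tumor cells and fibroblasts (vertical, log2 scale) against the mean level over the 6 libraries (horizontal, log2(FPKM + 1)) for 13369 genes; colored points passed an adjusted p under 0.05 and ringed genes are named in the text. Keratin and secretory genes reach 7.48 above 0 and matrix and complement genes reach -8.56 below it.

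The genes furthest apart were structural and secreted products of each cell type. On the tumor side the 12 largest differences, among genes without overlap and with 20 FPKM or more, belonged to Reg1, Krt7, Wfdc2, Krt18, Reg3b, Epcam, Tff2, Dmbt1, Krt8, Gkn3, Krt19 and Ctse. Wfdc2, a secreted protease inhibitor of ductal epithelium, was even between tumor libraries, at 811, 734 and 811 FPKM in tumor cells against 22.2, 0.214 and 4.38 in fibroblasts. Reg3b, a secreted lectin of the injured pancreas, was uneven, at 108, 1977 and 929 against 1.38, 0.974 and 15.3 (adjusted p = 0.0398), and its call was lost without any 1 of the 6 libraries (largest adjusted p 0.112) and with no format term (adjusted p 0.0535). On the fibroblast side the 12 were Serping1, Dcn, Mgp, Serpina3n, Mmp2, Slit3, Mfap5, Bgn, Sparc, Ccl7, Eln and C1s1. Mgp, an inhibitor of calcification, stood at 59.2, 4.11 and 0.942 FPKM in tumor cells and 3740.0, 3605 and 1898 in fibroblasts (difference -8.45 ± 1.19). C1s1, a protease of the first complement component, stood at 1.29, 1.47 and 0.2804 and 254, 560.3 and 544.

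Epithelial junction genes rose together in tumor cells. Of 32 adhesion and junction genes tested, 30 were higher in KO_tumor and 0 lower, with a median difference of 3.38 against 0.05 over all genes tested. With 1 knockout library left out, the number higher ran from 23 without KO_CAF 2 to 29 without KO_tumor 2. Cdh1, which encodes E-cadherin, stood at 112, 171 and 228 FPKM in tumor cells and 3.07, 0.0888 and 0.698 in fibroblasts (difference 6.39 ± 0.74; adjusted p = 0.000126). Cldn4, a tight junction claudin, was at 193, 100.1 and 186 against 3.29, 0 and 1.84. Cldn7 was at 164, 248 and 162 against 3.78, 0.0681 and 3.401, and for each of these 3 genes the lowest tumor library stood far above the highest fibroblast library. Dsp, the desmosomal plaque protein, was lower in KO_tumor 2 than in the other tumor libraries, at 15.4, 3.204 and 24.6 against 0.668, 0.112 and 0.143. Cldn1 and Ppl were the 2 members that did not pass the test.

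The stretches just upstream of the members furthest apart are shown to give the letters next to their starts. The members with the largest differences that have an entry in the RefSeq promoter table were Epcam, Cldn4 and Cldn7 for junctions, and Dpt, Pi16 and Serpinf1 for fibroblast markers. Cdh1, Dcn, Mfap5 and Lum are named only. The 250 bases before each annotated start were searched on both strands for CAGGTG (an E-box known to be bound by ZEB and SNAIL factors), AACNGGTT (grainyhead) and TGANTCA (AP-1). Each is printed from 5′ to 3′ on the strand of the gene, in build GRCm38.p6, with matches in capitals. Epcam (chr17:87635729-87635978, plus strand) holds an E-box at 187 and at 19 bases before the start, Cldn4 (chr5:134946935-134947184, minus strand) holds AP-1 letters at 240 and 158 and an E-box at 14, and Dpt (chr1:164796413-164796662, plus strand), a matrix protein of fibroblasts, holds an E-box at 224.
Epcam: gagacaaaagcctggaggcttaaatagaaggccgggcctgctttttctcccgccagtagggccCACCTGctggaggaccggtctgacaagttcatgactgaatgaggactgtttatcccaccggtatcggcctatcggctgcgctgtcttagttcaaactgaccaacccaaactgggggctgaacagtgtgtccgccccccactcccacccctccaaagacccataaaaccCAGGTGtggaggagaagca
Cldn4: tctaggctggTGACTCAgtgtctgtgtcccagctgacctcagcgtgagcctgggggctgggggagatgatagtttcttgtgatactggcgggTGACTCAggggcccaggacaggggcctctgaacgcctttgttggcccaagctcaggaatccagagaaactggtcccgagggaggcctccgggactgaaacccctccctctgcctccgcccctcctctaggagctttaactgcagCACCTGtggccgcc
Dpt: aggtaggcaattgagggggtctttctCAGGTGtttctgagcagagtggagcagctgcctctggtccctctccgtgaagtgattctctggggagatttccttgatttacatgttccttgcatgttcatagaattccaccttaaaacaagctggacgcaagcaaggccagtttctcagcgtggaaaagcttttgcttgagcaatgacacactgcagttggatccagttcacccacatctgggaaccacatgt
Cldn7, Pi16 and Serpinf1 hold none of these letters in the window. Of the junction genes called higher, 19 have an entry and 7 of them (36.8%) hold the E-box, against 17.1% of 27018 promoters of the same length. Of the fibroblast markers called lower, 12 have an entry and 1 (8.33%) holds it. The AP-1 letters were in 3 of the 19 (15.8%) and 0 of the 12, against 6.87% of all, and the grainyhead letters in 1 and 0, against 1.71%. These shares rest on few promoters, and their difference was not tested. A match is a run of letters and not a site that was shown to be bound.

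Keratins, proteases of epithelium and epithelial regulators followed the junction genes. Of 10 keratins tested (12 listed), 8 rose and 0 fell, with a median difference of 3.71. Krt7 and Krt19, keratins of ducts, stood at 1326, 2013 and 859 and at 1132, 913 and 862 FPKM in tumor cells, against 38.5, 0.219 and 10.2 and 51.1, 0.466 and 9.42 in fibroblasts. Krt18, the partner of Krt8, stood at 1441, 2533 and 1068 against 51.6, 0.794 and 13.3. Krt20, a keratin of gastrointestinal epithelium, was low in KO_tumor 2, at 84.3, 3.86 and 93.3 against 0.7301, 0.129 and 0.0732. The count of keratins fell to 5 without KO_CAF 2 or without KO_tumor 1.

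Among 10 proteases listed for epithelium and their inhibitors, not all of them membrane proteins, 9 rose and 1 fell. Ctse, the aspartic protease cathepsin E of gastric epithelium, was at 201, 111 and 759 FPKM in tumor cells and 3.18, 0 and 3.33 in fibroblasts. Spint2, an inhibitor of surface serine proteases, was at 537, 546 and 619 against 21.6, 0.774 and 8.92, and Prss22, a serine protease, was even between tumor libraries, at 179, 175 and 178 against 6.43, 0.111 and 0.625. The member that fell was Plat, tissue plasminogen activator, at 76.9, 237 and 70.05 against 399.6, 333 and 403 (difference -1.79 ± 0.53); its call was lost without KO_CAF 1, KO_CAF 2, KO_tumor 1 or KO_tumor 3 (largest adjusted p 0.079).

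Factors that keep epithelial identity rose as well, 13 of 15 tested with 1 lower. Elf3, an ETS factor of epithelium, was at 118, 26.5 and 170.3 FPKM in tumor cells and 2.07, 0 and 0.806 in fibroblasts. Esrp1, which sets epithelial splicing, was at 18.9, 10.9 and 26.9 against 0.524, 0 and 0.201 (difference 3.94 ± 0.68). Ehf, another epithelial ETS factor, was at 11.7, 13.1 and 35.6 against 0.228, 0.0172 and 0.107, and Grhl2, a grainyhead factor, at 5.202, 3.17 and 7.41 against 0.0849, 0 and 0.0455. Klf4 ran the other way, at 38.9, 9.51 and 80.999 against 157, 472 and 97.9, at an adjusted p of 0.0499 that was lost without any 1 of 5 of the 6 libraries.

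Transcription factors of pancreas and foregut were low in absolute level but parted the groups: 12 of 19 tested rose and 1 fell, with a median difference of 1.62. Hnf4a, a nuclear receptor of gut and liver epithelium, was at 7.23, 15.8 and 31.8 FPKM in tumor cells against 0.125, 0.0111 and 0.1102 in fibroblasts. Pdx1, the pancreatic homeobox factor, was even at 11.5, 12.4 and 13.95 against 0.3701, 0 and 0. Sox9, a factor of ducts and progenitors, was at 11.2, 63.3 and 27.6 against 5.35, 4.904 and 6.54, highest in KO_tumor 2. Gata6, a factor of foregut endoderm that is also known in mesenchyme, was the member that fell, at 3.27, 3.12 and 14.2 FPKM in tumor cells against 62.8, 42.2 and 29.99 in fibroblasts (difference -2.77 ± 0.79; adjusted p = 0.0186). Its groups did not overlap; its call was lost without KO_CAF 1, KO_CAF 2, KO_tumor 1 or KO_tumor 2 (largest adjusted p 0.0807). The other GATA factors tested, Gata4 and Gata5, rose, with differences of 1.40 ± 0.47 and 2.24 ± 0.61.

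Gastric mucin, trefoil and other gastric or secretory genes were high in tumor cells. Of 26 tested, 18 rose (69.2%, against 13.0% of all genes tested) and 0 fell, with a median of 3.53. The number that rose was 12 without KO_CAF 2 or KO_tumor 3 and 20 without KO_tumor 2. Among the tumor libraries, 23 of the 26 were lowest in KO_tumor 2. Tff2, a trefoil peptide of gastric mucous neck cells, stood at 761, 98.4 and 2404 FPKM against 5.897, 0.134 and 8.76 in fibroblasts. Gkn3, a gastrokine, stood at 276, 15.98 and 1623 against 0.594, 0.0902 and 1.92, and both were lowest in KO_tumor 2 and highest in KO_tumor 3. Anxa10, an annexin of gastric epithelium, was even across them, at 17.4, 14.8 and 17.6 against 0.0905, 0.0261 and 0 (difference 4.08 ± 0.30; adjusted p = 1.03e-05). Spp1, which encodes the secreted protein osteopontin, was among the most abundant transcripts of tumor cells at 6929, 7760.4 and 6299 FPKM and reached 2328, 34.6 and 393 in fibroblasts. The calls of Tff2 and Gkn3 were lost without KO_CAF 2 or KO_tumor 3, and that of Gkn3 also without KO_tumor 1 (largest adjusted p 0.0595 for Tff2 and 0.0776 for Gkn3).

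Acinar enzymes separated the tumor libraries from each other more than the tumor cells from the fibroblasts. Their median FPKM over 26 tested genes was 0.193 in KO_tumor 1, 723 in KO_tumor 2 and 1143 in KO_tumor 3, and 0.103, 0.517 and 10.8 in KO_CAF 1 to 3. All 26 were lowest in KO_tumor 1 among the tumor libraries, and 25 were highest in KO_CAF 3 among the fibroblast libraries. Ctrb1, a chymotrypsinogen, stood at 1.399, 1990.2 and 8117 FPKM in tumor cells and 0.852, 4.64 and 41.4 in fibroblasts. All 26 differences were above 0, but 3 passed the test: Reg1 (a secreted regenerating protein; 227, 1443 and 3190.4 against 1.47, 0.913 and 37.8), the lipase gene Pnliprp2 and the trypsinogen Try4, listed at 0 in KO_tumor 1. The 3 called were 11.5% of the list, near the 13.0% of all genes tested that were higher. Without KO_tumor 1 the number called was 24, without KO_CAF 2 or KO_tumor 3 it was 0, and without KO_CAF 1, KO_CAF 3 or KO_tumor 2 it was 1. Trypsinogen genes are near-identical copies, so their separate values are uncertain.

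**Figure D3:**
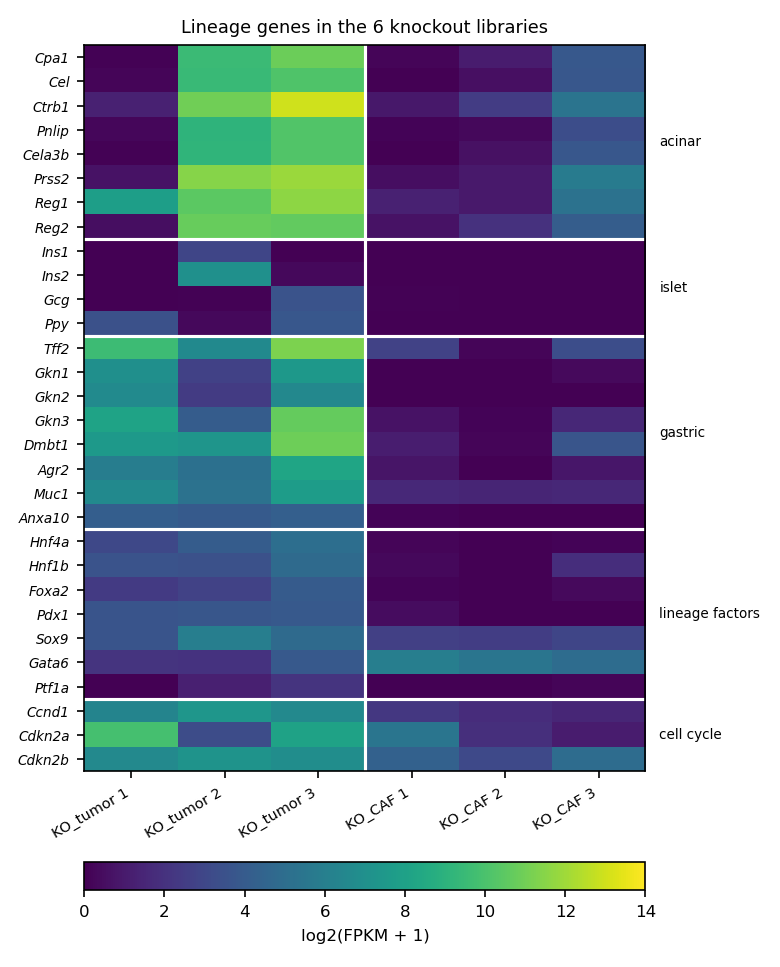
Levels of acinar, islet, gastric, lineage factor and cell cycle genes in each of the 6 Saa3 knockout libraries (columns), colored by log2(FPKM + 1). Acinar genes are dark in KO_tumor 1 and bright in KO_tumor 2 and 3, gastric genes are dimmest in KO_tumor 2 among the tumor libraries, and Gata6 is brighter in the fibroblasts.

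On the stromal side, 18 of 25 general fibroblast markers fell in tumor cells and 0 rose, with a median difference of -6.01. Dcn, the small proteoglycan decorin, stood at 19.9, 14.2 and 2.15 FPKM in tumor cells and 1321, 5871 and 5619 in fibroblasts (difference -8.46 ± 1.495; adjusted p = 0.00142). Mfap5, a microfibril protein, stood at 1.71, 5.92 and 0 against 208, 1436 and 976. Dpt, whose upstream stretch is printed above, stood at 0.142, 0.401 and 0.0912 against 33.002, 1391 and 228, and Lum, lumican, at 3.56, 2.59 and 0.1402 against 116, 1331 and 1066. KO_CAF 1 was the lowest fibroblast library for these 4 genes, as it was for 19 of the 25. Pdgfrb, by contrast, was even, at 0.778, 0.289 and 0.134 against 75.5, 82.1 and 82.4.

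Not every marker of mesenchyme passed the test. The filament protein vimentin, Vim, stood at 668, 582 and 293 FPKM in tumor cells and 1184, 2340.1 and 636 in fibroblasts, which overlapped (adjusted p = 0.195). Fbln2, a fibulin of the matrix, was at 413, 587 and 269 against 878, 1506 and 1095, without overlap (adjusted p = 0.0944). Ly6a, a surface antigen of progenitors, was at 818, 1215 and 359 against 115, 1335 and 1312, and S100a4 at 136, 38.01 and 12.6 against 43.1, 52.9 and 32.96. Tumor cells thus held Vim and Fbln2, while Pdgfra, Pdgfrb and Fap, an enzyme of activated fibroblasts (0.141, 0.0243 and 0.0664 against 10.1, 15.5 and 18.02), were close to 0 in the same libraries.

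Collagens were made on the fibroblast side with 1 exception: 16 of 21 chains tested fell in tumor cells, 1 rose, and the median was -4.11. Col5a2 and Col5a1, chains that start fibrils, stood at 2.97, 1.31 and 0.247 and 7.79, 3.84 and 1.27 FPKM in tumor cells against 375, 699 and 269.7 and 425, 925 and 231 in fibroblasts. Col6a3, a chain of beaded filaments, was at 1.18, 0.0864 and 0.103 against 111, 174 and 59.4. Col18a1, a basement-membrane collagen that carries endostatin, was higher in tumor cells, at 116, 198 and 119 against 32.7, 41.2 and 27.99 (difference 2.03 ± 0.57); its call was lost without KO_CAF 3 or KO_tumor 2 (largest adjusted p 0.103). The most abundant collagens could not be called. Col1a1 was listed at 0 in KO_CAF 2 beside 6029 and 3426 FPKM in KO_CAF 1 and 3, and stood at 56.8, 12.4 and 4.63 in tumor cells. Col1a2 was likewise listed at 0 in KO_CAF 2, beside 3014 and 4104. Col3a1 was listed at 0 in KO_CAF 1 and 2 and at 9049.7 in KO_CAF 3. An exact 0 beside such levels can be a failed estimate.

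Matrix glycoproteins split by the kind of matrix. Of 38 tested, 29 fell in tumor cells and 4 rose, among them the laminin chains Lama3, Lamb3 and Lama5 of epithelial basement membrane. Those that fell were 76.3%, against 15.4% of all genes tested. Those that rose were 10.5%, near the 13.0% of all genes. Lama3 stood at 24.2, 34.6 and 33.8 FPKM in tumor cells and 0.786, 0.0465 and 0.218 in fibroblasts (difference 4.58 ± 0.79; adjusted p = 0.00121), and Lamb3 at 47.7, 126 and 76.5 against 1.36, 0.356 and 30.01. Other laminin chains ran the other way: Lama4, of mesenchyme and vessels, was at 0.386, 0.209 and 2.06 against 34.6, 86.9 and 64.3. Sparc, a collagen-binding glycoprotein, stood at 49.7, 48.7 and 3.26 FPKM in tumor cells and 4004, 6933 and 4718 in fibroblasts. Bgn, biglycan, stood at 62.1, 4.95 and 2.42 against 2466, 4689 and 1449, and Eln, elastin, at 0.279, 2.38 and 0.1004 against 58.99, 2365 and 364, widely spread between fibroblast libraries. Fn1, fibronectin, was listed at 0 in KO_CAF 1; KO_CAF 2 and 3 held 2629 and 851 FPKM and KO_tumor 1 to 3 held 1292, 388 and 705, so that the groups overlapped even without that 0.

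Receptors for matrix were called in both directions. Of 25 integrins, syndecans and glypicans tested, 6 were higher in tumor cells (24.0%, against 13.0% of all genes tested) and 9 in fibroblasts (36.0%, against 15.4%). Itga3, Itgb4, Itga6 and Itga2 rose, and of these the subunits encoded by Itgb4 and Itga6 form the receptor of hemidesmosomes for laminin. Itgb4 stood at 33.9, 55.04 and 61.8 FPKM in tumor cells and 2.73, 0.236 and 0.597 in fibroblasts, and Itga6 at 42.1, 41.3 and 67.4 against 6.33, 0.636 and 1.44. Itga11, a collagen receptor of fibroblasts, was even on the other side, at 0.126, 0.0677 and 0.0324 against 16.6, 20.1 and 21.2 (difference -4.23 ± 0.39; adjusted p = 6.24e-05). Gpc3, a glypican, was at 0.429, 0.693 and 5.07 against 44.5, 176 and 209. Itgb1 and Itgav, subunits shared by many integrins, had differences of -0.01 ± 0.45 and 0.08 ± 0.29, without passing the test.

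Enzymes that process collagen were lower in tumor cells in 15 of 19 cases, with 0 higher. Lox, the lysyl oxidase that crosslinks collagen and elastin, stood at 9.01, 3.203 and 0.131 FPKM in tumor cells and 460.1, 1146 and 578 in fibroblasts. Its relative Loxl1 stood at 5.74, 1.51 and 1.06 against 214, 601 and 109.6, and Adamts2, which trims procollagen, at 0.949, 3.84 and 0.577 against 55.5, 324 and 189. Serpinh1, the collagen chaperone, remained above 50 FPKM in tumor cells, at 168, 134 and 56.8 against 1650.2, 1280.2 and 1056. Of 23 proteases that cut matrix and their inhibitors, 16 were lower in tumor cells (69.6%, against 15.4% of all genes tested) and 4 higher (17.4%, near the 13.0% of all genes). Mmp7, matrilysin, a protease of epithelium, was at 191, 19.7 and 297 against 1.77, 0.134 and 1.57, and Mmp13, a collagenase, at 15.5, 80.6 and 18.3 against 2.51, 0.236 and 0.943. The number higher was 1 without KO_CAF 2 or KO_tumor 3, 2 without KO_CAF 1 or KO_tumor 1, and 0 without KO_CAF 1 and KO_tumor 1 together. Timp1, an inhibitor of these proteases, was high in fibroblasts, at 441, 288 and 115 against 4686, 1280.3 and 1533.

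Regulators of mesenchyme were divided into those that followed the fibroblasts and those that did not. Of 32 tested, 15 fell in tumor cells and 1 rose, with a median of -1.59. Osr1, an odd-skipped factor of mesenchyme, stood at 0.552, 0.304 and 0.395 FPKM in tumor cells and 35.5, 89.99 and 45.6 in fibroblasts. Prrx1, a homeobox factor of limb and stromal mesenchyme, stood at 2.25, 0.243 and 0.04803 against 47.98, 54.8 and 16.002 (difference -4.47 ± 0.48; adjusted p = 9.25e-05). Snai1 was at 11.1, 0.146 and 1.23 against 89.6, 45.1 and 10.7, with KO_tumor 1 just above KO_CAF 3. Zeb2 was at 2.13, 1.43 and 1.32 against 13.6, 23.3 and 11.8, and Zeb1 at 1.901, 1.701 and 2.33 against 5.89, 14.4 and 5.92. Twist1 stood at 23.7, 16.9 and 14.9 FPKM in tumor cells and 42.4, 12.6 and 9.24 in fibroblasts, and Prrx2 at 23.3, 133 and 41.7 against 44.8, 65.2 and 58.9; the groups overlapped for both, and neither passed the test (adjusted p = 0.942 and 0.899). Scx, a factor of tendon, was the member that rose, at 43.02, 26.6 and 14.8 against 5.29, 0.486 and 1.02, with a call lost without KO_CAF 2, KO_CAF 3, KO_tumor 1 or KO_tumor 2 (largest adjusted p 0.0741).

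Contractile genes were on the fibroblast side, 9 of 16 lower in tumor cells and 0 higher. Acta2, smooth muscle actin, stood at 4.15, 0.677 and 0.255 FPKM in tumor cells and 331, 73.9 and 220.0 in fibroblasts. Tagln, transgelin, was at 14.2, 0.436 and 1.499 against 1061, 131 and 149, and Myl9, a myosin light chain, at 2.15, 0.757 and 0.107 against 251, 42.9 and 120.2. KO_CAF 1 was the highest fibroblast library for 13 of the 16. Pericyte genes lay on the same side, 5 of 10 lower and 0 higher: Kcnj8, a potassium channel of mural cells, was at 0.183, 0.0642 and 0.0265 against 53.6, 41.98 and 32.7, and Abcc9 at 0.16003, 0.0153 and 0.0848 against 14.5, 51.2 and 13.3, while Rgs5 was at 0.248, 1.13 and 3.05 against 0.267, 0.92002 and 5.63. Over the 3 defining pericyte markers, the summed level was 1.06 to 3.16 FPKM in tumor cells and 41.0 to 57.7 in fibroblasts. Of 12 mesothelial markers, Krt19 and Msln rose and Wt1 and Rspo1 fell in tumor cells, while 5 fell without KO_CAF 2. With all libraries this was 16.7% in each direction, near the shares over all genes tested (13.0% higher and 15.4% lower). Msln, mesothelin, was at 164, 312 and 348 against 10.003, 0.366 and 11.4, and Wt1, a factor of mesothelium and its offspring, at 0.236, 0.0738 and 0.0729 against 55.6, 57.9 and 11.6. The share of such cells in the sorted fibroblasts was not tested.

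Complement and acute-phase genes were expressed by the fibroblasts even without Saa3. Of 18 complement genes tested, 9 fell in tumor cells and 0 rose. Serping1, the C1 inhibitor, had the largest difference of all genes named by size, at 10.4, 7.74 and 2.51 FPKM in tumor cells and 1719.7, 3449 and 3154 in fibroblasts (difference -8.56 ± 1.29). C4b, the fourth component, was at 3.16, 3.37 and 5.56 against 189, 1107 and 739, and C1ra, the partner protease of C1s1, at 0.566, 0.515 and 0.288 against 117, 316 and 226; C1ra has a near-identical copy, C1rb, and their separate values are uncertain. C3 was listed at 0 in KO_CAF 2 and stood at 1353 and 2508 FPKM in KO_CAF 1 and 3, against 23.98, 14.1 and 26.9 in tumor cells. Of 12 acute-phase genes other than the SAA family, 8 fell and 0 rose. Serpina3n, an inhibitor of serine proteases, stood at 0.806, 2.81 and 1.38 against 322, 2815 and 694. Ptx3, a pentraxin, stood at 0.294, 0.5004 and 0.0613 against 71.6, 654 and 309, and Hp, haptoglobin, at 9.87, 2.21 and 0.382 against 478, 609 and 527. The number of acute-phase genes called was 4 without KO_CAF 2, KO_CAF 3 or KO_tumor 2 and 5 without KO_tumor 1. Serpina3 genes are close copies, so reads may be split between them. Of 8 tested genes of the SAA family and its named receptors, Tlr2 and P2rx7 were lower in tumor cells (25.0%, against 15.4% of all genes tested). Tlr2 was at 1.902, 1.26 and 0.659 against 3.12, 5.25 and 6.98 and P2rx7 at 0.296, 0.0147 and 0.228 against 6.99, 3.18 and 4.84. The call of Tlr2 was lost without KO_CAF 2, KO_CAF 3, KO_tumor 2 or KO_tumor 3 (largest limma adjusted p 0.0698).

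**Figure D4:**
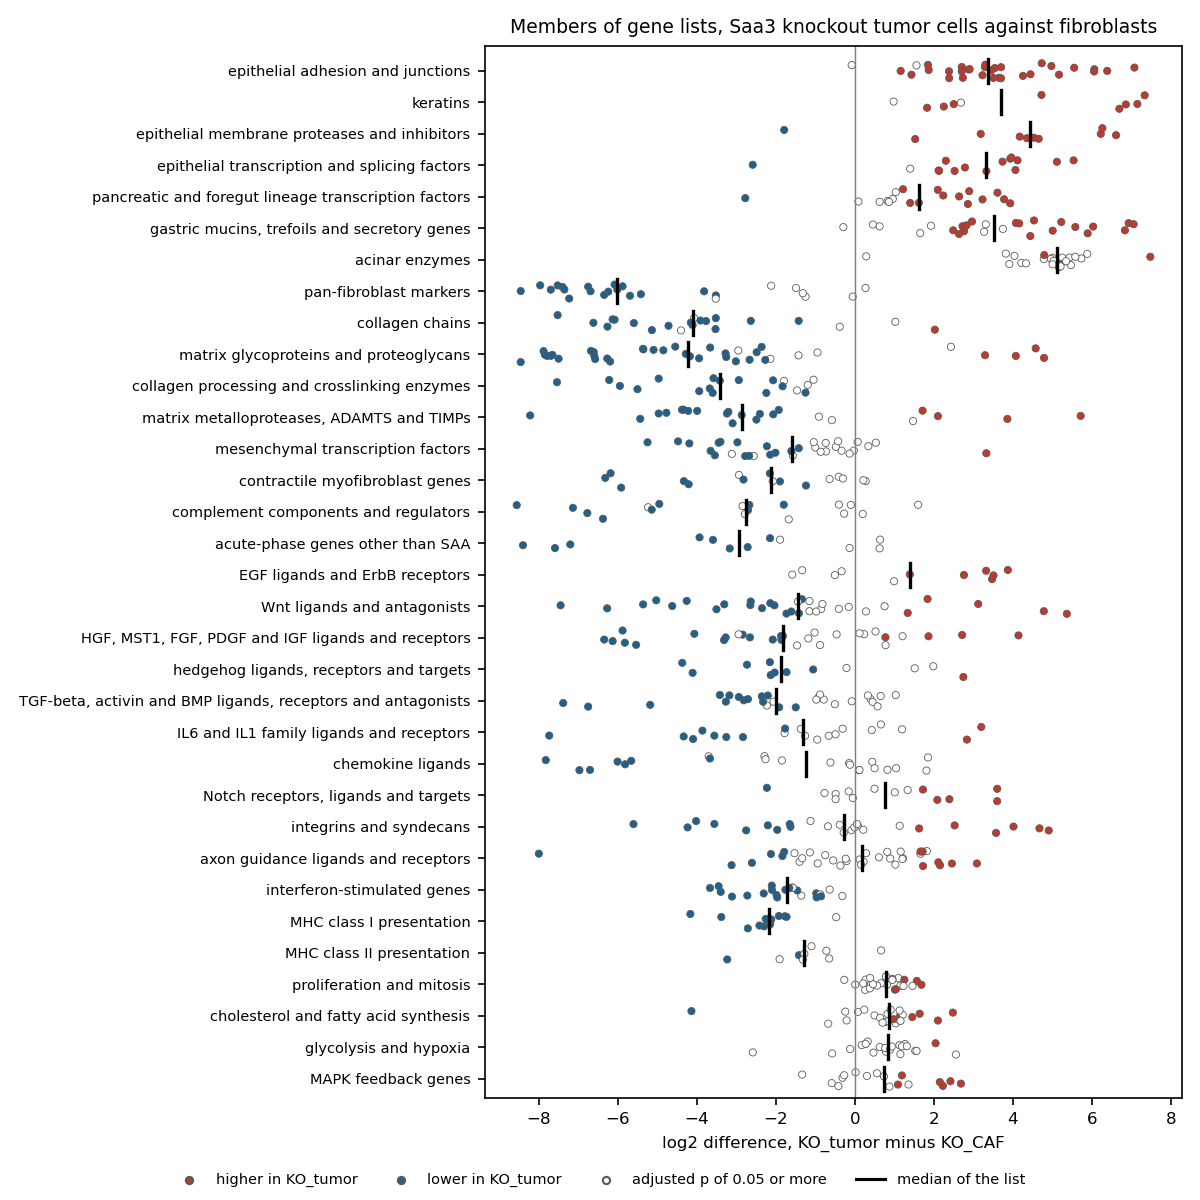
Difference between Saa3 knockout tumor cells and fibroblasts for the tested members of 33 gene lists (log2 scale; 1 point per gene); red members were higher and blue members lower at an adjusted p under 0.05, open members did not pass, and black bars give the median. Epithelial lists lie to the right, with medians of 1.62 to 4.45. Acinar enzymes have a median of 5.13, with 3 of 26 members called. Matrix and fibroblast lists lie to the left, and signalling lists hold members on both sides.

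Signalling genes were laid out by ligand and receptor. Of 11 genes of the EGF family tested, 6 rose in tumor cells and 0 fell, and 7 differences were above 0 and 4 below. Areg, amphiregulin, stood at 52.2, 83.3 and 58.2 FPKM in tumor cells and 5.24, 1.02 and 5.67 in fibroblasts, and Hbegf at 83.8, 195 and 142 against 15.5, 6.22 and 13.4. Tgfa stood at 11.4, 18.4 and 40.3 against 3.97, 1.55 and 1.501 and Btc, betacellulin, at 6.13, 29.2 and 20.95 against 0.403, 0.331 and 1.51, so that 4 ligands were higher in tumor cells in every library. Their receptor Egfr was in both cell types, at 10.2, 14.1 and 23.2 in tumor cells and 29.2, 73.8 and 47.4 in fibroblasts, lower in every tumor library without passing the test (adjusted p = 0.105). Erbb3, a partner receptor without an active kinase, was found almost only in tumor cells at 15.3, 4.11 and 38.8 against 0.438, 0.273 and 0.214, with a call lost without KO_tumor 3 (adjusted p 0.0514). Ereg, another ligand, was also lower in every tumor library and did not pass, at 7.64, 9.94 and 5.79 against 23.9, 19.98 and 18.6 (adjusted p = 0.164).

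Ligand and receptor lay on opposite sides for Pdgfb and for Hgf. Pdgfb stood at 25.96, 15.9 and 33.1 FPKM in tumor cells and 1.01, 0 and 0.397 in fibroblasts, while its receptor Pdgfrb, given above, stood at 75.5, 82.1 and 82.4 in fibroblasts and under 1 in tumor cells. Pdgfa, ligand of Pdgfra, was at 55.9, 48.9 and 35.5 against 28.1, 12.96 and 19.6; its groups did not overlap and it did not pass (adjusted p = 0.153). Hgf, hepatocyte growth factor, was the reverse, at 0.805, 0.201 and 0.09102 FPKM in tumor cells and 2.16, 20.8 and 11.6 in fibroblasts, with its receptor Met at 10.6, 11.6 and 17.9 against 1.96, 0.646 and 0.989 (difference 2.72 ± 0.32). Igf1 was at 0.367, 1.74 and 1.53 against 50.01, 217 and 153, and its receptor Igf1r at 7.38, 1.56 and 8.54 against 4.18, 3.53 and 0.7304, which overlapped, a call (adjusted p = 0.049) that was lost without any 1 of the 6 libraries. Fgf2, Fgf7 and Fgf10 were on the fibroblast side with the receptor Fgfr1, and Fgfr4 was on the tumor side. Of 29 tested in this list, 14 fell (48.3%, against 15.4% of all genes tested) and 4 rose (13.8%, near the 13.0% of all genes). The number that rose was 2 without KO_CAF 2.

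Wnt ligands differed by cell type: of 32 genes of the Wnt list tested, which holds receptors too, 17 fell in tumor cells and 5 rose. Those that fell were 53.1%, against 15.4% of all genes tested. Those that rose were 15.6%, near the 13.0% of all genes. Wnt7b stood at 70.9, 104 and 47.5 FPKM in tumor cells and 2.52, 0.0182 and 0.442 in fibroblasts, and Wnt7a at 34.1, 32.9 and 44.02 against 0.938, 0.0371 and 0.267. Fibroblasts held Wnt2 in place of these, at 0.402, 0.327 and 0.171 in tumor cells against 50.8, 31.5 and 43.9. Sfrp1, a secreted antagonist that binds Wnt proteins, was the furthest of the list, at 2.02, 1.82 and 1.35 against 410.2, 668 and 386 (difference -7.45 ± 0.77; adjusted p = 7.94e-05). Sfrp2 was at 1.86, 3.55 and 0.927 against 84.5, 351 and 381, and Rspo1, an R-spondin that strengthens Wnt signals, at 0.0231, 0.218 and 0.0332 against 6.12, 58.7 and 20.1. Axin2, a feedback target of Wnt signalling, was uneven between fibroblast libraries, at 0.909, 0.343 and 1.04 against 25.9, 6.92 and 1.09. The number higher in tumor cells was 3 without any 1 of 5 libraries and 5 without KO_tumor 1.

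Hedgehog genes had their receiving side in the fibroblasts. Of 12 tested, 8 fell in tumor cells and 1 rose. The transcription factors Gli1 and Gli2 stood at 0.133, 0.0111 and 0.0305 and 0.0117, 0 and 0 FPKM in tumor cells against 2.53, 9.41 and 1.69 and 3.39, 4.24 and 2.84 in fibroblasts. The co-receptors Boc and Gas1 stood at 0.0828, 0.14003 and 0.132 and 9.55, 8.03 and 4.03 against 12.7, 38.99 and 21.4 and 125, 270.5 and 70.6. Shh, the best known ligand, was uneven in tumor cells at 3.47, 0.0238 and 12.6 and listed at 0 in the 3 fibroblast libraries, and it did not pass (adjusted p = 0.176). Dhh, desert hedgehog, was the member that rose, at 3.98, 11.1 and 6.46 against 0.2595, 0 and 0.172 (difference 2.75 ± 0.44). Ptch1, the receptor and a target of the pathway, was present on both sides, at 4.47, 1.05 and 6.18 against 5.36, 4.49 and 2.56. The number that fell was 4 without KO_tumor 2 and 5 without KO_CAF 2 or KO_CAF 3.

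Interleukin 1 ligands and their receptor also lay apart. Il1a stood at 40.2, 42.9 and 26.5 FPKM in tumor cells and 8.59, 1.04 and 2.25 in fibroblasts, and Il1rn, the natural antagonist, at 12.6, 13.9 and 26.5 against 4.06, 0.465 and 1.06. The receptor Il1r1 stood at 4.099, 2.97 and 6.87 against 71.5, 99.5 and 65.5 (difference -3.86 ± 0.70). Of 20 tested in the IL1 and IL6 list, 8 fell and these 2 ligands rose. The share that fell was above the 15.4% of all genes tested, and the share that rose was below the 13.0% of all genes. Neither ligand was called without KO_CAF 2, KO_CAF 3, KO_tumor 1 or KO_tumor 2, and 1 was called without KO_tumor 3. Il6 itself was a fibroblast product, at 2.81, 0.435 and 0.433 FPKM in tumor cells and 133, 929 and 609 in fibroblasts, and its signalling subunit Il6st was higher there too, at 13.3, 8.82 and 17.2 against 58.4, 130.2 and 118. Il33, an alarmin, was at 18.9, 20.5 and 8.84 against 269, 294 and 431, so that it was present in tumor cells at a lower level.

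Of 22 chemokines, 7 fell in tumor cells (31.8%, against 15.4% of all genes tested), 0 rose and 15 did not pass the test. Above 0 were 8 of the differences. Ccl2 and Ccl7, which attract monocytes, stood at 4.14, 6.19 and 2.395 and 1.44, 3.44 and 0.482 FPKM in tumor cells against 186, 1516 and 874 and 109, 1004 and 1689 in fibroblasts. Cxcl12, the ligand of Cxcr4, stood at 1.55, 4.62 and 13.8 against 127, 435 and 490.2. Cxcl1, which attracts neutrophils, was high in both cell types, at 135, 127 and 58.8 against 328, 2844 and 2436, without overlap and without passing the test (adjusted p = 0.0841). Ccl20 and Ppbp ran the other way without passing, with every tumor library above every fibroblast library: Ccl20 was at 6.74, 3.17 and 1.27 against 0.0564, 0.154 and 0.272 (adjusted p = 0.0867) and Ppbp at 7.71, 1.65 and 1.33 against 0.231, 0 and 0 (adjusted p = 0.1). Among 28 genes of TGF-beta, activin and BMP signalling, 14 fell and 0 rose. Fstl1, a follistatin-like antagonist, was at 11.1, 5.099 and 1.29 against 617.9, 1467 and 865, and the receptor Tgfbr2 at 17.9, 19.2 and 19.6 against 104, 215 and 254. Tgfb1 did not pass the test (0.58 ± 0.73).

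**Figure D5:**
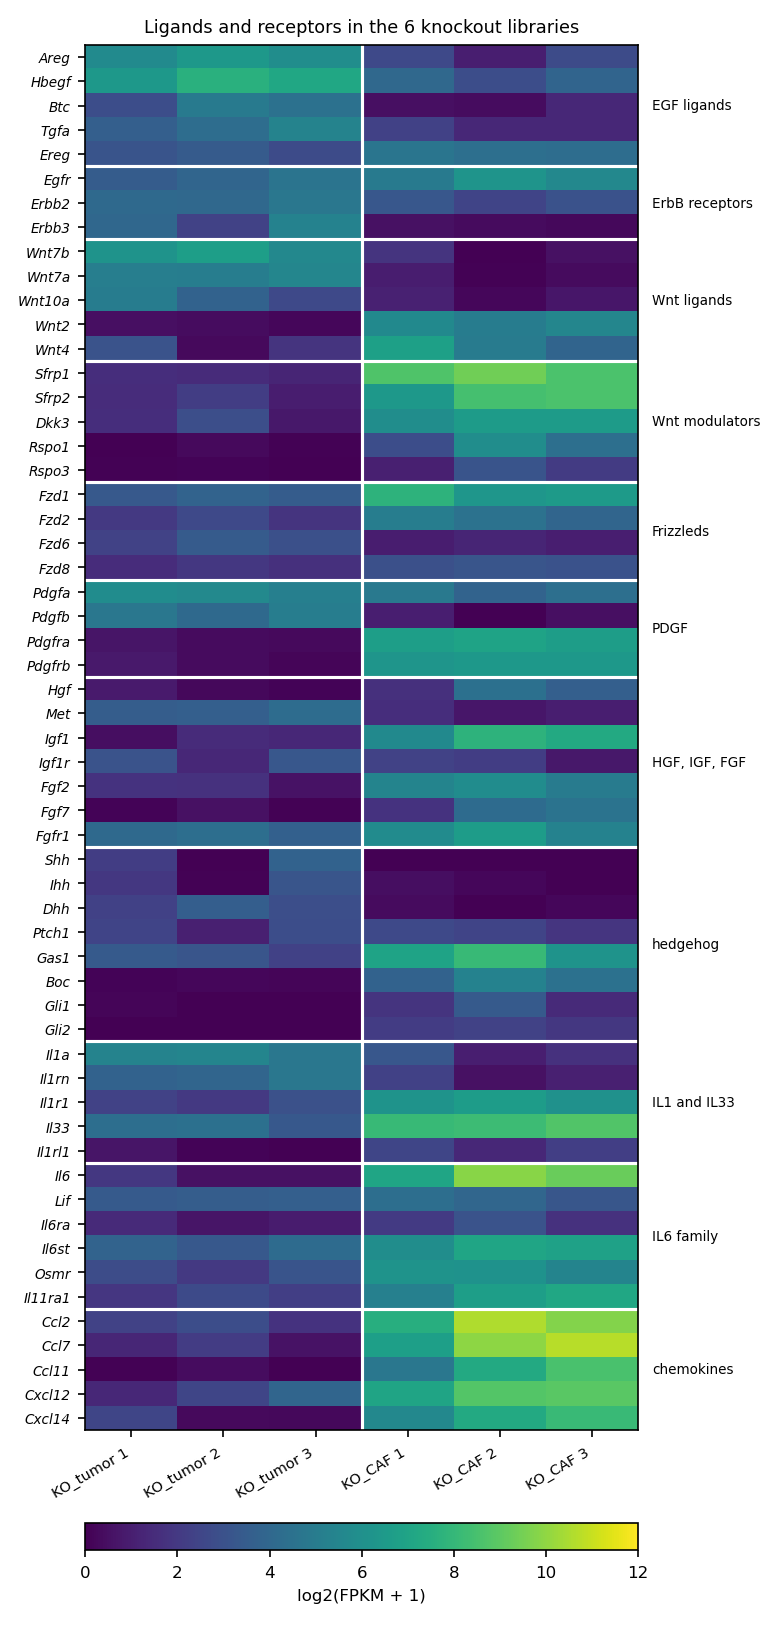
Levels of ligands and their receptors in each of the 6 Saa3 knockout libraries (columns), colored by log2(FPKM + 1), grouped by pathway. Areg, Hbegf, Btc, Tgfa, Wnt7b, Pdgfb and Il1a are brighter in the 3 tumor libraries, while Pdgfra, Pdgfrb, Igf1, Sfrp1, Gas1, Il1r1, Il6, Ccl2 and Cxcl12 are brighter in the 3 fibroblast libraries.

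Of 14 Notch pathway genes, 5 rose in tumor cells (35.7%, against 13.0% of all genes tested) and 1 fell (7.1%, against 15.4%). Nrarp, a feedback target of Notch, stood at 10.3, 23.3 and 13.8 FPKM in tumor cells and 0.495, 0.106 and 0.361 in fibroblasts (difference 3.61 ± 0.37; adjusted p = 7.7e-05). Dlk1, an atypical Notch ligand, stood at 18.8, 13.3 and 12.1 against 0.728, 0.0888 and 0.0874, and Jag2 at 15.3, 2.39 and 3.33 against 0.524, 0.0754 and 0, while the receptors Notch1 to Notch4 did not pass. The number that rose was 3 without KO_CAF 2, KO_CAF 3 or without the pair KO_CAF 1 and KO_tumor 1. Of 36 axon guidance genes, 7 rose and 6 fell (19.4% and 16.7%), shares near those over all genes tested (13.0% and 15.4%). Slit3, a ligand of Robo receptors, was by far the furthest, at 1.32, 0.566 and 0.0633 against 323, 729 and 273 (difference -8.00 ± 1.12), and Epha2, an ephrin receptor of epithelium, was at 86.5, 25.9 and 104 against 18.1, 4.31 and 2.92.

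Genes of antigen presentation and interferon response were lower in tumor cells. Of 13 genes of MHC class I presentation tested, 12 fell and 0 rose, with a median difference of -2.17. Psmb8, a subunit of the immunoproteasome, stood at 1.18, 0.757 and 0.738 FPKM in tumor cells and 35.4, 22.3 and 43.997 in fibroblasts (difference -4.16 ± 0.59; adjusted p = 0.000415). The peptide transporters Tap1 and Tap2 stood at 0.396, 0.479 and 0.914 and 0.849, 0.703 and 2.06 against 8.64, 7.72 and 12.1 and 17.6, 19.7 and 27.2. The heavy chain gene H2-K1 and the light chain gene B2m were abundant on both sides, at 57.3, 37.7 and 65.9 and 207, 357 and 211 in tumor cells against 189, 263 and 275 and 464, 877 and 1537 in fibroblasts. The number called was 5 without KO_CAF 3, 6 without KO_tumor 1 or KO_tumor 2 and 7 without KO_CAF 2. H2 genes are near-identical copies, so reads may be split between them.

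Of 22 interferon-stimulated genes, 17 fell in tumor cells and 0 rose, with a median of -1.71, and all 22 differences were below 0. Oasl2 stood at 0.857, 0.106 and 0.618 FPKM in tumor cells and 20.2, 10.6 and 16.5 in fibroblasts. Isg15, a ubiquitin-like protein, stood at 3.07, 0.245 and 0.806 against 31.2, 15.5 and 19.1, and Irf7, an interferon regulatory factor, at 3.47, 0.454 and 2.15 against 19.3, 13.3 and 19.2. Ddx58, the RNA sensor RIG-I, was at 0.5999, 0.478 and 1.31 against 5.29, 6.94 and 7.54 (difference -2.10 ± 0.26; adjusted p = 0.000206). For these 4 genes no tumor library reached a fibroblast library. Without KO_CAF 3 the number called was 7, and without KO_tumor 2 it was 10. Of 9 genes of MHC class II presentation, H2-DMb1 and Cd80 fell (22.2%, against 15.4% of all genes tested), 1 of them without KO_CAF 3 or KO_tumor 2. H2-Ab1 was at 4.45, 4.69 and 3.96 against 73.8, 5.35 and 15.9, highest in KO_CAF 1. That was the fibroblast library with the most myeloid signal, whose part in this was not tested.

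Cyclin D1 and 2 inhibitors of its kinases rose in tumor cells. Ccnd1, cyclin D1, stood at 78.1, 164 and 95.8 FPKM in tumor cells and 3.88, 2.397 and 1.86 in fibroblasts (difference 4.90 ± 1.02; adjusted p = 0.00364). Of the inhibitors, Cdkn2b was at 95.9, 143 and 116 against 19.4, 7.58 and 29.9, and Cdkn2a at 924, 8.55 and 263 against 42.02, 2.702 and 1.103. Cdkn2a in KO_tumor 2 thus lay within the range of the fibroblasts, and its call was lost without KO_CAF 2 or KO_tumor 1 (largest adjusted p 0.0757). Cdkn2c fell, at 1.33, 2.52 and 1.17 against 14.2, 12.9 and 11.9. Of 18 genes of this list 5 rose (27.8%, against 13.0% of all genes tested) and 1 fell (5.6%, against 15.4%). The number that rose was 2 without KO_CAF 2 or KO_tumor 1 and 3 without KO_CAF 3 or KO_tumor 3. The number that fell was 3 without KO_CAF 1 and 2 without KO_tumor 3. Of 25 proliferation genes 6 rose (24.0%, against 13.0% of all genes tested) and 0 fell, 24 of the 25 differences were above 0 and the median was 0.79; Mcm7, of the replicative helicase, was at 45.5, 36.04 and 23.4 against 14.6, 6.86 and 9.201, and Mki67, a marker of cycling cells, at 4.63, 2.59 and 5.87 against 4.501, 4.42 and 1.99, which overlapped. The count of proliferation genes was 0 without KO_CAF 2, KO_CAF 3 or KO_tumor 1 and 1 without KO_tumor 2.

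Of 19 genes of the p53 list, Trp53 included, 6 fell (31.6%, against 15.4% of all genes tested) and 3 rose (15.8%, near the 13.0% of all genes). Ccng1, a cyclin induced by p53, stood at 6.81, 17.7 and 14.005 FPKM in tumor cells and 27.4, 30.99 and 46.2 in fibroblasts, and Sesn1 at 2.81, 1.46 and 2.38 against 10.5, 14.8 and 15.9. Perp, a target of p53 that is also a protein of desmosomes, rose, at 51.6, 60.02 and 61.5 against 1.66, 1.53 and 1.86, as did Pmaip1, which encodes the apoptotic protein Noxa, at 34.5, 14.6 and 25.9 against 2.83, 1.87 and 6.65. Cdkn1a, which encodes p21, was at 29.7, 39.6 and 44.02 against 62.7, 27.4 and 35.6, and the groups overlapped.

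Feedback genes of the MAP kinase pathway were higher in tumor cells in 6 of 17 cases (35.3%, against 13.0% of all genes tested) and lower in 0. Dusp6, a phosphatase of ERK, stood at 65.04, 63.9 and 83.3 FPKM in tumor cells and 11.4, 5.52 and 15.7 in fibroblasts (difference 2.69 ± 0.50; adjusted p = 0.00188). Dusp5 stood at 70.4, 92.8 and 106 against 28.3, 15.3 and 13.4, and Etv4, an ETS factor, at 25.6, 13.01 and 31.1 against 13.4, 1.51 and 2.75, with KO_tumor 2 below KO_CAF 1. The number called was 2 without KO_tumor 2 and 3 without KO_CAF 2, KO_CAF 3 or KO_tumor 3. The Sprouty genes Spry1, Spry2 and Spry4 did not pass.

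In metabolism, 6 of 24 genes of cholesterol and fatty acid synthesis rose (25.0%, against 13.0% of all genes tested) and 1 fell (4.2%, against 15.4%). The number higher was 2 without KO_CAF 2, KO_CAF 3, KO_tumor 1 or KO_tumor 2. Scd1, a stearoyl desaturase, was the member that fell, at 2.65, 1.54 and 1.01 FPKM in tumor cells and 88.9, 50.8 and 20.8 in fibroblasts (difference -4.14 ± 0.71; adjusted p = 0.00124). Of 23 glutathione and NRF2 genes, 4 rose (2 without KO_CAF 3) and 4 fell, 17.4% in each direction, near the shares over all genes tested (13.0% and 15.4%). Among the glutathione peroxidases, Gpx2 was at 28.8, 13.8 and 35.2 against 0.135, 0 and 0.154 and Gpx3 at 10.8, 77.2 and 8.88 against 459.8, 1544 and 1554. Among the glutathione transferases, Gsta4 was at 197, 97.02 and 615 against 11.9, 4.42 and 9.18 and Gstm2 at 4.73, 7.09 and 17.6 against 100.2, 216 and 189. Of 22 glycolysis and hypoxia genes 1 rose (4.5%, against 13.0% of all genes tested). Among the fibroblasts, 20 of the 22 were highest in KO_CAF 1. Without that library 10 rose, while 0 rose without KO_CAF 2, KO_CAF 3, KO_tumor 1 or KO_tumor 2.

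The same contrast was set beside tumor cells and fibroblasts with intact Saa3 (WT_tumor, n = 4, against WT_CAF, n = 5), which share no library with the knockout groups. Epcam was 2.60 FPKM in the library labelled WT_tumor 4, where the remaining WT_tumor libraries ran from 129 to 549. Pdgfra was 9.80 FPKM in the library labelled WT_CAF 1, where the remaining WT_CAF libraries ran from 81.0 to 121. In wild type 1210 genes (9.05%) were higher and 1670 (12.5%) lower in tumor cells. Of these, 933 were also higher in knockout (53.6% of the knockout calls and 77.1% of the wild-type calls) and 1387 also lower (67.4% and 83.1%). Without WT_CAF 1 and WT_tumor 4, 1579 were higher and 1883 lower in wild type. Of these, 1284 were also higher in knockout in the same fit (61.6% of its knockout calls and 81.3% of its wild-type calls) and 1636 also lower (69.4% and 86.9%). Of 38 lists, the median was further from 0 in knockout for 25 and in wild type for 12, and had opposite signs for 1; without those 2 libraries the counts were 24, 13 and 1. Further from 0 in knockout were junction genes (3.38, and 2.57 in wild type), fibroblast markers (-6.01 and -5.38) and MHC class I genes (-2.17 and -1.56). Further from 0 in wild type were MHC class II genes (-1.28 in knockout and -2.72 in wild type), chemokines (-1.23 and -1.76) and contractile genes (-2.11 and -2.51). Without the 2 libraries the wild-type medians of these 6 lists were 3.21, -5.57, -1.63, -2.73, -1.71 and -2.48. These list medians were not tested between genotypes. The test of the difference between the contrasts called 0 genes with limma (0%), with 185 genes at an unadjusted p under 0.05. Its median standard error was 0.479 on the log2 scale, against 0.341 for the knockout contrast, so that modest differences between genotypes were not detectable here. Large differences did not pass either, among them that of Mpp6 (-3.66 ± 0.52) and that of Saa3 itself. The absence of calls therefore does not show that the genotypes were alike. Without the libraries labelled WT_CAF 1 and WT_tumor 4, 1 gene was called.

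That gene was Mpp6, a membrane scaffold protein, which was also the only gene called in opposite directions in knockout and wild type. It stood at 41.4, 64.9 and 40.3 FPKM in KO_tumor and 131, 182 and 137 in KO_CAF, and at 32.04, 24.04, 32.7 and 17.5 in WT_tumor and 10.8, 3.79, 3.85, 5.17 and 12.5 in WT_CAF. The contrast was -1.62 ± 0.37 in knockout and 2.04 ± 0.37 in wild type, and the difference between them was -3.66 ± 0.52 (adjusted p = 0.0788, and 0.0241 without the libraries labelled WT_CAF 1 and WT_tumor 4). Over the alternatives its adjusted p ran from 0.0194 to 0.936. For Dlk1 the difference between the contrasts was 2.70 ± 0.66, with an adjusted p of 1.0, and for Saa3, deleted in 1 of the genotypes, it was 7.35 ± 2.45. Neither was called.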

How the data were processed

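Levels were deposited as FPKM per gene for 18 libraries of polyA RNA from sorted mouse cells. Per the submitters' processing notes, the authors used Cuffnorm, Cufflinks 2.2.1, TopHat2 2.0.10, SAMtools 0.1.19, Bowtie 1.0.0 and FastQC, with mm9 as the mouse build. The sources used here do not give the order, settings, annotation or use of strand, so reads of overlapping, antisense or near-identical genes may be shared. FPKM keep no depth, so no counting interval can be given. Samples were grouped by their treatment label.

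The test kept 13369 of 23951 genes, those that reached 1 FPKM in 3 libraries. log2(FPKM + 1) was fitted with limma 3.58.1 in R 4.3.3, with terms for group and for library format (a 6-base, a 16-base or no index in the label) over all 18 libraries; 5 libraries (NPF 1 to 3, WT_CAF 1 and 2) have no index in their labels and formed a level of their own. All libraries share 1 estimate of spread. Contrasts were KO_tumor minus KO_CAF, the same in wild type, and their difference. Differences are on the log2(FPKM + 1) scale, which understates changes of low genes, with standard errors, and p-values were adjusted over all genes by Benjamini-Hochberg. An exact 0 in a library of a group with 50 FPKM or more elsewhere was treated as a possible failed estimate, and such genes are given by library. The code was tested on simulated data.

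Named were the alleles and markers of the model, the 12 largest differences in each direction among called genes without overlap and with 20 FPKM or more in the higher group, and up to 4 called members per list and direction with partners the text needs. Further list members were named beside these. Members and lists were chosen with earlier results of these data known. Promoters came from RefSeq (build GRCm38.p6), matched by symbol. Alternatives covered the format term, the libraries fitted, pseudocount, filter, scaling and each library left out. Results for some genes are not reported here.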

Additional observations from a re-analysis of the deposited data

How the results depend on the processing

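Of 18 alternatives run, 6 moved the number of genes higher by more than 1.5 times and 4 the number lower. With only the 6 knockout libraries and no format term, 1155 genes were higher. With only the 4 libraries that have a 6-base index, 289 were higher and 513 lower of 10469 tested. The filter, set on those 4, left out genes confined to a single cell type. A fixed set of 192 called genes was followed through the alternatives: markers, alleles, the largest differences, top list members and some added genes. This set is not the same as the called genes named in the text. It leaves out some of them, among them Anxa10, Esrp1, Ddx58 and Csf1r, and holds some that are not named. Of these 192, 94 kept the call with only the 4 libraries of a 6-base index and 43 lost it, and the rest were not tested there. With any 1 knockout library left out, the number higher ran from 891 to 1522 and the number lower from 1302 to 1958. Without WT_CAF 1 and WT_tumor 4, the knockout contrast called 2085 higher and 2359 lower. Without KO_CAF 1 and KO_tumor 1 together, an alternative chosen after seeing the data, 1044 were higher and 1360 lower. The wild-type counts without WT_CAF 1 and WT_tumor 4, 1579 higher and 1883 lower against 1210 and 1670, were likewise added after seeing the data. For the difference between genotypes, 1 gene (Mpp6) was called with no format term and without the libraries labelled WT_CAF 1 and WT_tumor 4, and 0 to 1 with any 1 library left out. None of the 192 genes of that set changed direction under the alternatives run. This was not tallied for other genes. Of these 192, 146 kept the call without any 1 of the 6 knockout libraries and 46 lost it in at least 1. No paired analysis was possible because replicate numbers follow accession order and the labels tie no tumor library to a fibroblast library. The unknown depth limits statements on genes near 0 FPKM.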

Other observations

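Islet hormones were uneven between tumor libraries. Ins2, an insulin gene, stood at 0, 132 and 0.236 FPKM in KO_tumor 1 to 3. Gcg, which encodes glucagon, stood at 0, 0.0479 and 10.8, and Ppy, pancreatic polypeptide, at 9.998, 0.223 and 13.1. These 3 genes were at 0 to 0.0437 FPKM in KO_CAF 1 to 3, and Ins2 was high in a tumor library where Gcg and Ppy were low.

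Mcpt8, a protease of basophils, stood at 31.7, 725 and 136 FPKM in KO_tumor 1 to 3 and at 1.38, 0 and 0.669 in KO_CAF 1 to 3. It is no member of the lists above and was singled out after its values were seen.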
